A study of Mus musculus with 32 samples.

Results

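Cytosolic ribosomal proteins build the ribosomes that translate messenger RNA in the cytoplasm, and their genes were taken as the gene counts that carried a standard ribosomal protein symbol (Rps or Rpl with its number, and Rplp0, Rplp1 and Rplp2), were neither S6 kinases nor symbols ending in -ps, and had a mean of at least 100 raw counts over all mice. Of 39676 genes in the table, 76 carried such a symbol and 71 reached the limit. They comprised 25 proteins of the small subunit, 39 of the large subunit, the 3 P stalk proteins and 4 paralogs (Rpl22l1, Rps27l, Rps3a2 and Rps3a3). The annotation (GENCODE M21 on GRCm38) lists 69 of the 71 as protein coding and Rps3a2 and Rps3a3 as processed pseudogenes, so the name of ribosomal protein gene was not borne out for these 2. The lowest level inside the limit was Rpl29 with a mean of 368 counts, and the nearest outside were Rps4l with 56.5, Rpl3l with 47.4 and Rpl39l with 11.2. Rps7, Rps12, Rps23, Rps24, Rps26, Rpl8, Rpl17, Rpl36, Rpl37 and Rpl7l1 were not analysed here.

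The study compared mesothelioma tumors grown from the same cell line in 2 body compartments, the pleural cavity (intrapleural, IPL) and the space under the skin (subcutaneous, SC). AB1 cells, a murine mesothelioma line, were placed in BALB/c mice at 500000 cells per mouse, and AE17 cells, a second such line, in C57BL/6 mice at 1000000 cells per mouse. All 32 mice were untreated females of 8 to 10 weeks, their tumors were harvested on day 10, and RNA-seq was done on the whole tumor of each mouse, with 8 mice in each combination of model and site. Each model was 1 cell line in 1 strain, and AB1 and AE17 tumors of the same site shared no sequencing lane, so model, strain, cell line and lane cannot be told apart.

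A ribosome has a small subunit, which reads the messenger RNA, and a large subunit, which forms the peptide bonds, with a stalk of P proteins that recruits the elongation factors. The proteins are needed in equal numbers, with more copies only for the stalk, and their messenger RNAs typically begin with a run of pyrimidines (C and U) known as the TOP motif, through which the mTORC1 pathway controls their translation, while Myc is known to raise their transcription. Free Rpl5 and Rpl11, bound to 5S RNA, are known to inhibit Mdm2 and so to stabilize p53. Most of these genes have many processed pseudogenes in the mouse genome, copies of the messenger RNA set back into DNA.

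The start regions of members that lead the comparisons below are shown for runs of pyrimidines. Each is 30 bases of the gene's own strand, at a start listed by RefSeq on GRCm38.p6, with the longest run of C or T in capitals, the first of them where runs are equally long, as in Rps27l.
Rpl13 (chr8:123102325-123102354): gtgacgtcaCTTCCCTTTCgcctgattttg
Rplp2 (chr7:141447636-141447665): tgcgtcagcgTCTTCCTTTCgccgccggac
Rpl35a (chr16:33056468-33056497): cggggcttgCCTTCCTCTTTCCgccatctt
Rps27 (chr3:90213632-90213661): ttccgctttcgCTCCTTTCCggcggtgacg
Rps27l (chr9:66946061-66946090): ccaCTCCTCTCCactcctccccgccgcctc
Rpl22l1 (chr3:28805499-28805528): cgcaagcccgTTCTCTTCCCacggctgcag
Rps2 (chr17:24720055-24720084): cgagatctcgcgCTTCTTggagcactataa
Rpl35a had a run of 13 bases and Rpl13, Rplp2 and Rpl22l1 had runs of 10, whereas the longest at the listed start of Rps2 was 6. Those of Rpl13 and Rps27l lay wholly before the listed start, outside the messenger RNA as listed. These starts lay 0 to 18 bases from the start of a GENCODE M21 transcript of the same gene, which need not be the outermost one. That of Rpl22 lay 1306 bases from the nearest and is not shown. A run of at least 7 C or T on the gene's strand within 25 bases on either side of any listed start was present in 34 of the 52 members with a listed start (65.4%), against 22 of 69 mitochondrial ribosomal protein genes (31.9%) and 8842 of all 27025 genes with one (32.7%). For 43 of the 52 members the start with the longest run lay within 25 bases of a GENCODE transcript start, and 8 had more than 1 listed start. These are matches of letters, given as a description.

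The copies differ from their parent genes by few bases, which bears on what a 50-base read can tell. The 60 bases below are coding bases 398 to 457 of Rpl29 (gene at chr9:106429454-106431568), counted from 1 at the start codon, and capitals mark, in Rpl29, each base from which any copy shown differs and, in a copy, each base that differs from Rpl29.
Rpl29: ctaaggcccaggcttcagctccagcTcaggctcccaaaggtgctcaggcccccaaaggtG
Gm14036 (chr2:134803949-134804428): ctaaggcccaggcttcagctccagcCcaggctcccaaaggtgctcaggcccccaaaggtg
Gm8210 (chr1:43189156-43189638): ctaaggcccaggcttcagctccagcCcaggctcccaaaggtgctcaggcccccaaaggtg
Gm13841 (chr5:115801677-115802159): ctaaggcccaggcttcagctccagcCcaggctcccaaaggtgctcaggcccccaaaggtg
Gm15454 (chr1:134518081-134518563): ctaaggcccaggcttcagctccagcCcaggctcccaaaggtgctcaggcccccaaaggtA
These 4 processed pseudogenes were 99.4%, 99.4%, 99.4% and 99.2% identical to the Rpl29 coding sequence, and all 4 carried C300T and T423C. Gm14036 further differed by G231A, Gm8210 and Gm13841 by C72A, and Gm15454 by G144A and G457A. Over all members, a median of 43.9% of the 50-base stretches of a member's transcripts occurred in some other gene as well, 28 of 71 members shared at least 50% of theirs, and only 1 of the 71 shared none.

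Levels are given as CPM, the counts of a gene per 1000000 counts of its mouse after TMM scaling of the totals. Total counts per mouse ran from 15432258 to 20649645, and the members took between 3.55% and 5.59% of them. In AB1 SC tumors the share was 4.26% at the lowest, 4.62% at the median and 4.85% at the highest, and in AB1 IPL tumors it was 4.06%, 4.49% and 5.59%. In AE17 SC tumors the corresponding values were 3.55%, 3.88% and 4.52%, and in AE17 IPL tumors 3.61%, 3.77% and 4.36%. The 2 sites of a model overlapped throughout, with AB1 IPL the most dispersed group, and both AE17 medians lay below every AB1 mouse. The ranges of the models touched through the highest AE17 mice, SC replicate 8 at 4.52% and IPL replicate 6 at 4.36%. Small subunit, large subunit and P stalk genes all took a smaller median share in AE17 than in AB1 (1.47% against 1.72%, 2.05% against 2.45% and 0.354% against 0.412% in SC tumors). The mitochondrial ribosomal proteins, which serve a separate ribosome, took median shares of 0.269%, 0.280%, 0.267% and 0.253% in AB1 SC and IPL and in AE17 SC and IPL tumors. In whole tumors, fewer cells of a type and less RNA per cell cannot be told apart.

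**Figure D1:**
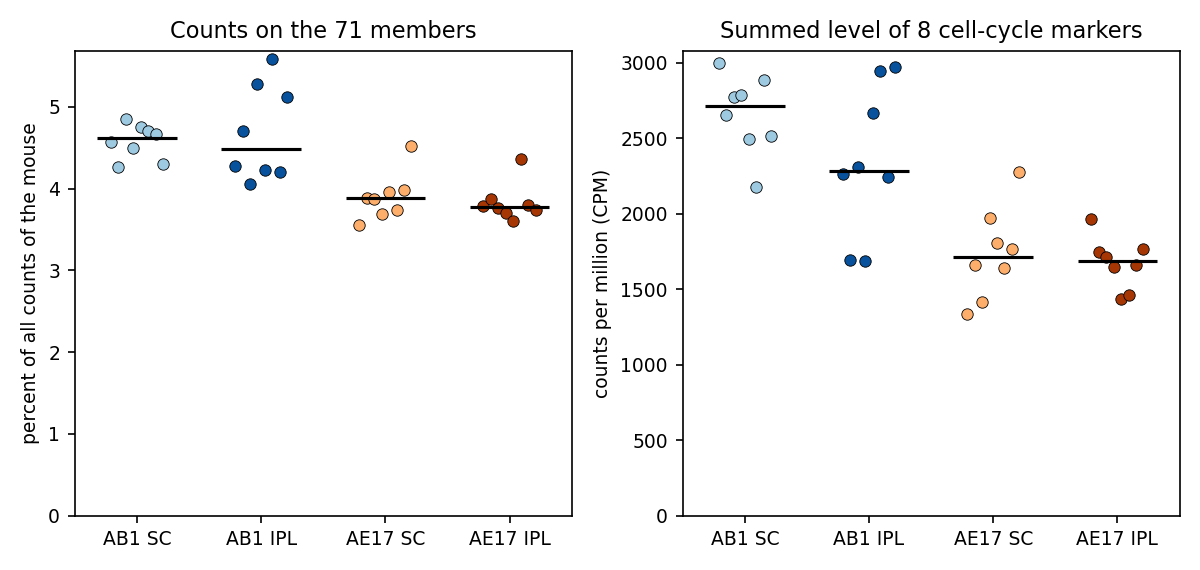
Left, percent of all counts of each mouse that fell on the 71 members; right, summed CPM of 8 cell-cycle markers, with 1 point per mouse, 8 mice per group and the median as a bar. The median member share is 4.62% and 4.49% in AB1 SC and IPL and 3.88% and 3.77% in AE17 SC and IPL, and the marker sum is also lower in AE17.

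Other cell content moved with the groups, and its part in the values below was not tested. All 12 skeletal muscle markers had counts in every group, and their sum ranged from 123 to 5427 CPM in AB1 IPL tumors against 55.1 to 554 in AB1 SC tumors, with 46.2 to 1522 and 57.5 to 942 in AE17 SC and IPL tumors. The 9 heart muscle markers summed to 4.42 to 9.62 and 4.31 to 142 CPM in AB1 SC and IPL and 5.75 to 13.1 and 9.02 to 248 CPM in AE17 SC and IPL tumors. The 7 adipocyte markers with counts summed to 27.9 to 61.9 and 39.9 to 336 CPM in AB1 SC and IPL and 10.5 to 74.4 and 18.4 to 999.7 CPM in AE17 SC and IPL tumors. The 5 endothelium markers summed to 121 to 158 and 112 to 197 CPM in AB1 SC and IPL and 134 to 182 and 145 to 257 CPM in AE17 SC and IPL tumors. The 5 erythroid markers summed to 23.8 to 66.5 CPM in AB1 SC and 55.1 to 3562 CPM in AB1 IPL tumors, and to 29.6 to 224 and 71.1 to 700.3 CPM in AE17 SC and IPL tumors. The 4 fibroblast markers with counts in the table summed to 10909 to 14186 CPM in AB1 SC and 12995 to 34445 CPM in AB1 IPL tumors, and to 14498 to 24300 and 12874 to 23517 CPM in AE17 SC and IPL tumors, so that every AE17 SC mouse lay above every AB1 SC mouse. Lung epithelium markers, 5 of 8 with counts in the table, also separated the models. They summed to 4.18 to 7.64 and 2.62 to 5.12 CPM in AB1 SC and IPL and 32.2 to 64.5 and 26.2 to 38.2 CPM in AE17 SC and IPL tumors. Of these markers, 1 was at 0 in all AE17 SC mice. Their medians were lower in IPL than in SC tumors of both models (3.85 against 6.09 CPM in AB1, 29.35 against 40.1 CPM in AE17). The lung label was thus not borne out by them. The 7 epidermis markers with counts summed to 2.53 to 4.73 CPM in AB1 SC and 6.94 to 46.5 CPM in AE17 SC tumors, and to 2.41 to 12.9 and 7.29 to 16.4 CPM in AB1 and AE17 IPL tumors. The 8 cell-cycle markers summed to medians of 2712 and 2284 CPM in AB1 SC and IPL and 1714 and 1684 CPM in AE17 SC and IPL tumors. The 9 leukocyte markers with counts summed to 751 to 1302, 531 to 1181, 534 to 1148 and 698 to 1132 CPM in AB1 SC and IPL and in AE17 SC and IPL tumors. These sums hide opposite movements. Between the AB1 sites 3 of the 9 were called higher in IPL and 5 lower, with log2 fold changes from -2.15 to 3.81. Of all genes tested there, 12.3% and 10.7% were called higher and lower. Between the AE17 sites 2 were higher and 0 lower, where 2.60% and 3.13% of all genes were called. The 5 of 8 mesothelial tumor markers with counts in the table summed to only 0.487 to 87.8 CPM in any mouse, so the mesothelial label was not borne out by them. AB1 IPL replicates 2 and 4 stood apart with 191 and 141 CPM of the cell-cycle gene Mki67, against a median of 671 CPM in their group. The member calls and median between the AB1 sites, and the member calls between the models, are therefore also given without them. Other AB1 IPL values rest on all 8 mice unless stated.

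Levels between members were compared per length only. As CPM per kilobase of annotated exon, averaged over the 4 groups, the highest were the stalk proteins Rplp1 (2601) and Rplp0 (1250), the small subunit proteins Rps3a1 (1061) and Rps15 (1002), and Rpl41 (872), the smallest protein of the large subunit. The lowest were Rpl29 (19.3), Rpl21 (28.8), Rpl35a (33.1), Rpl22l1 (42.9) and Rpl13a (43.1). The order differed within groups. In AE17 SC tumors Rpl41 (740) lay below Rpl4 (846), and Rps3a2 (0.161) and Rps3a3 (0.4055) were the lowest. Large subunit genes whose proteins are needed in equal numbers, such as Rpl41 and Rpl29, thus lay far apart in counts per length. These are each gene's own counts, and its pseudogenes may hold others, as described for Rpl29 below. Rpl29 itself had 1.30 in AB1 SC and 37.3 in AE17 SC tumors. Over coding length the order changed, with Rpl41 (7380 CPM per kilobase), Rplp1 (3796), Rps29 (2457), Rpl39 (2444) and Rps20 (2198) in front.

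The members varied less within a group than the median gene tested. The members were chosen for a mean of at least 100 counts, and the genes tested were not matched to them for level. The comparison is therefore a description. The median standard deviation of log2 CPM across the 8 mice was 0.0978 for the members against 0.174 for all genes tested in AB1 SC tumors, 0.245 against 0.313 in AB1 IPL, 0.129 against 0.239 in AE17 SC and 0.108 against 0.198 in AE17 IPL. In all 4 groups Rps3a2 had the largest spread, up to 4.07 in AE17 IPL tumors. Across the 8 mice of a group, the gene outside the set whose log2 CPM followed the members' mean most closely was Gm14414, a processed pseudogene, with a median correlation over the 4 groups of 0.95. Its correlations were 0.948, 0.951 and 0.964 in the AB1 SC, AB1 IPL and AE17 SC mice but 0.116 in the AE17 IPL mice, and 0.702 there once Rps3a2 and Rps3a3 were left out of the mean. Of the 10 closest, only Eef1b2 was annotated as protein coding, a subunit of the elongation factor that loads transfer RNA (median 0.899), and the others were annotated as pseudogenes. These correlations share the depth and scaling of each mouse and are given as a description. In AE17 IPL tumors that of Eef1b2 was 0.489, and 0.835 once both copies were left out. Among the members themselves, Rpl22l1 had the lowest median correlation with the mean (-0.205), with 0.808 in AB1 SC, -0.266 in AB1 IPL, -0.247 in AE17 SC and -0.163 in AE17 IPL tumors.

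Tumor sites were compared first within the AB1 model, the question being whether the compartment a tumor grows in changes its transcripts. No member passed the test (edgeR's quasi-likelihood test, Benjamini-Hochberg adjusted p under 0.05 over all genes tested): 0 of 71 were higher and 0 lower in IPL, where 12.3% and 10.7% of all 14645 genes tested were called higher and lower. The median log2 fold change of the members was 0.02, against -0.0023 for all genes, with 43 members above 0 and 28 below. Beyond the processed copies Rps3a2 and Rps3a3, described last, the fold changes lay between -0.15 for Rpl24 and 0.23 for Rps2. Rpl24, on the subunit interface, had 86.0, 95.5 and 104 CPM (lowest, median and highest) in AB1 SC and 75.8, 84.2 and 109 CPM in AB1 IPL tumors (adjusted p = 0.169). Rps2, at the entry of the messenger RNA channel, had 39.7, 49.8 and 59.2 CPM in AB1 SC and 31.8, 59.5 and 95.6 CPM in AB1 IPL tumors (adjusted p = 0.445). The groups overlapped for both genes, and AB1 IPL was the wider. The 3 stalk proteins were all a little above 0, with log2 fold changes of 0.10 to 0.16 and none called. Within lane 3 alone (8 IPL and 2 SC mice) the median was 0.03 with no member called, with lane as a covariate it was 0.08, and without AB1 IPL replicates 2 and 4 it was -0.03 with 3 members called lower, and with voom 7 members were lower over all mice.

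Of the genes that act on ribosomes, each list is read against the 12.3% of all genes called higher and 10.7% called lower in this comparison. Of 30 ribosome biogenesis genes none was called (median log2 fold change -0.06), and of 12 elongation factors and other TOP messenger RNAs none either (0.03). Of 25 initiation factors only Eif2b4 was higher (0.23), and of 13 genes of the mTORC1 axis Akt1s1 (0.31) and Eef2k (0.21), an inhibitor of mTORC1 and the kinase that slows elongation, a share of 15.4% near that of all genes. Mxd4 (0.57), an antagonist of Myc, was the only one of 7 Myc family genes called higher (14.3%), and Gadd45a (0.64) the only one of 13 p53 targets. Of 67 mitochondrial ribosomal proteins, Mrpl10 (0.18), Mrpl14 (0.26) and Mrpl17 (0.24) were higher. Rpl3l, the paralog that replaces Rpl3 in striated muscle and lay below the count limit, was higher in AB1 IPL tumors (log2 fold change 3.09, SE 0.62, adjusted p = 0.0018), with 8 to 309 counts against 3 to 29, and its ranges overlapped. With the mean log2 CPM of the skeletal muscle, heart muscle, adipocyte and lung epithelium markers as covariates, the value of Rpl3l was -0.30.

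In the AE17 model, 1 of 69 members tested was higher in IPL tumors and 0 were lower, where 2.60% of all 14668 genes tested were called higher and 3.13% lower. With voom 8 members were higher and 9 lower. The member was Rpl13a, a large subunit protein also known for a role outside the ribosome in silencing inflammatory messenger RNAs. It had 72.2, 87.5 and 111 CPM in AE17 SC and 98.3, 119 and 132 CPM in AE17 IPL tumors, a log2 fold change of 0.36 (SE 0.09, adjusted p = 0.0248), and the ranges overlapped. The call was lost without AE17 IPL replicate 4, without AE17 IPL replicate 7 and without AE17 SC replicate 5 (adjusted p = 0.0563, 0.0535 and 0.0544). The same held with lane as a covariate (adjusted p = 0.15) and with the same tissue marker levels as for Rpl3l as covariates (adjusted p = 0.441). Rpl13a was also not called within lane 1 alone (log2 fold change 0.45, adjusted p = 0.19) or when its pseudogenes were added to it. In AB1 tumors Rpl13a had a log2 fold change of 0.19 (adjusted p = 0.225), and the difference between the models was not called (0.15, adjusted p = 0.513). The median over the 69 members was -0.02, against 0.0043 for all genes tested, and all 3 stalk proteins had values below 0 (-0.06 to -0.10) without a call. Within lane 1 alone (3 IPL and 8 SC mice) the median was 0.05.

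For the other lists in AE17 tumors, 2.60% of all genes were called higher and 3.13% lower. The poly(A) binding protein Pabpc1 was the only one of 12 TOP messenger RNAs called higher (0.23), and the nucleolar methyltransferase Nop2 the only one of 30 biogenesis genes called lower (-0.53). The mTORC1 inhibitor Deptor was higher (0.63). Of 13 p53 targets, 4 (30.8%) were higher and none lower: Cdkn1a (0.32), Mdm2 (0.22), Sesn2 (0.40) and Gadd45a (0.49). The 5S particle proteins Rpl5 and Rpl11, which act on Mdm2, had log2 fold changes of -0.11 and 0.01 without a call. None of 25 initiation factors was called, and Mrpl20 (-0.41) and Mrps6 (-0.65) were the 2 of 67 mitochondrial ribosomal proteins called lower (2.99%).

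The site effects of the models were then compared with each other in 1 fit over all 32 mice, as the AE17 site effect minus that of AB1. Of 71 members, 3 were called higher and 1 lower, where 8.62% and 11.9% of all 15681 genes tested were called in these directions, and the median was -0.06. With voom 10 were higher and the median turned to 0.0701, and with a replicate block, a filter of at least 1 count or one of 10 counts in every mouse, 0 were higher. Rpl22, a large subunit protein that ribosomes can do without, was the one called lower (-0.38, SE 0.12, adjusted p = 0.0210): its log2 fold change from SC to IPL was 0.08 in AB1 (adjusted p = 0.438) and -0.28 in AE17 tumors (adjusted p = 0.0812), neither called on its own. Rpl24 was called higher (0.30, SE 0.10, adjusted p = 0.0349), with -0.15 in AB1 and 0.17 in AE17 tumors, and this call was lost in 14 of the 32 fits that left out 1 mouse. The other members past the threshold, Rps3a2 (7.43) and Rps3a3 (6.04), reached the limit of 100 counts only through some groups and are given as a description: they lost their calls in 18 and 13 of the 32 fits that left out 1 mouse, and in 1 of these, without AE17 IPL replicate 2, their values turned below 0. Over the 68 members that reached the limit in every group, 1 was higher and 1 lower. Rpl22l1, the paralog of Rpl22, had a value of 0.36 that missed the threshold (adjusted p = 0.0675).

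**Figure D2:**
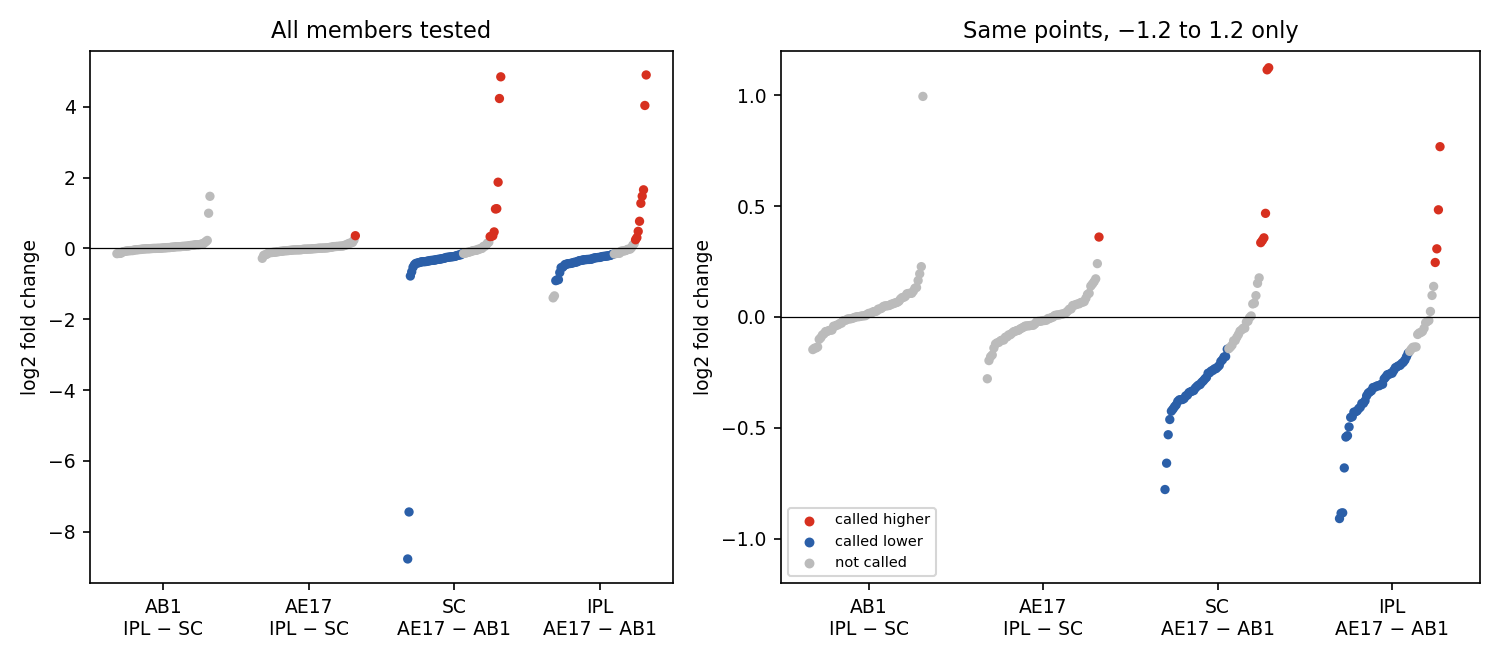
Log2 fold change of every member tested, ordered within each comparison, for IPL minus SC in each model and AE17 minus AB1 at each site; the right panel shows the same points between -1.2 and 1.2. Members called at an adjusted p under 0.05 are colored, 0 and 1 of them in the site comparisons and 51 and 53 between the models. Between the sites, 12.3% and 10.7% of all genes tested were called higher and lower in AB1, and 2.60% and 3.13% in AE17. Between the models these shares were 29.7% and 28.6% in SC and 31.8% and 31.6% in IPL tumors. The 51 include Rpl29, Rps3a2 and Rps3a3, and the 53 include Rpl29, genes that reached the count limit only through some groups.

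The models differed far more than the sites. In SC tumors 9 of 71 members (12.7%) were higher in AE17 and 42 (59.2%) lower, where 29.7% and 28.6% of all genes tested were called higher and lower. In IPL tumors 9 (12.7%) were higher and 44 (62.0%) lower, where the background was 31.8% and 31.6%. The median log2 fold change of the members was -0.23 in SC and -0.25 in IPL, against 0.0025 and 0.0043 for all genes tested. Without AB1 IPL replicates 2 and 4 the counts were 10 higher and 42 lower in SC and 10 higher and 41 lower in IPL tumors. By role, 16 of 25 small subunit, 21 of 39 large subunit and 2 of 3 stalk genes were lower in SC tumors, and 18, 23 and 2 in IPL tumors. Of the 71 members, 68 had a mean of at least 100 counts in every group, and Rpl29, Rps3a2 and Rps3a3, which did not, are included in these counts where they were called. Over the 68 alone, 8 (11.8%) were higher and 40 (58.8%) lower in SC and 8 (11.8%) higher and 44 (64.7%) lower in IPL tumors, at medians of -0.22 and -0.25. Both comparisons came from 1 fit with separate mice, and 39 members were called lower at both sites, 9 were called higher at both and 15 at neither. Rps10, Rps14, Rps4x, Rpl6 and Rpl10 were called lower only in IPL tumors and Rps3a1, Rps3a2 and Rps3a3 only in SC tumors. For Rps3a1 and the 5 called only in IPL tumors the difference between the sites did not pass the threshold in its own test.

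Rpl13, a large subunit protein, had the lowest log2 fold change in SC tumors after Rps3a2 and Rps3a3. It had 929, 1055 and 1155 CPM in AB1 SC and 524, 592 and 759 CPM in AE17 SC tumors, a log2 fold change of -0.78 (SE 0.10, adjusted p = 4.57e-08). In IPL tumors it had 778, 1084 and 1580 CPM in AB1 and 510, 585 and 721 CPM in AE17 (-0.88, SE 0.10, adjusted p = 3.33e-09). Every AE17 mouse lay below every AB1 mouse at both sites, although AB1 IPL spread widely.

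Of the 3 stalk proteins, Rplp1 and Rplp2 were called lower at both sites. Rplp2 had 536, 599 and 714 CPM in AB1 SC and 329, 386 and 427 CPM in AE17 SC tumors (-0.66, SE 0.09, adjusted p = 1.44e-07). In IPL tumors it had 496, 641 and 952 CPM in AB1 and 298, 345 and 412 CPM in AE17 (-0.88, SE 0.09, adjusted p = 3.61e-10). The models did not overlap at either site. Its partner Rplp1 had log2 fold changes of -0.25 in SC (adjusted p = 0.0267) and -0.50 in IPL tumors (adjusted p = 5.41e-05), with overlapping ranges. Rplp0, which anchors both to the ribosome, was called at neither site (0.06 and -0.14, adjusted p = 0.57 and 0.188). Summed with its 5 pseudogenes, as described for Rpl29 below, Rplp0 was called lower at both (-0.38 in SC, adjusted p = 0.000695, and -0.60 in IPL tumors, adjusted p = 1.24e-06).

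Other members were called lower as well. Among these Rpl22, described further below, had the largest fall of all members called in IPL tumors (-0.91). In IPL tumors Rps21 had 268, 342 and 473 CPM in AB1 and 186, 215 and 231 CPM in AE17 (-0.68, adjusted p = 5.56e-08), without overlap, and in SC tumors its value was -0.40 (adjusted p = 0.000258). Rpl41 had log2 fold changes of -0.37 in SC (adjusted p = 0.00166) and -0.54 in IPL tumors (adjusted p = 1.42e-05), with overlapping ranges. The lower calls nearest to 0 were Rps9 in SC (-0.15) and Rps27a in IPL tumors (-0.16), named here after their values were seen. Rpl5 and Rpl11 were called in no comparison, with 0.10 and -0.08 in SC and 0.02 and -0.14 in IPL tumors. Of 15 members known from Diamond-Blackfan anemia, an inherited failure of red cell formation, 7 were lower and 1 higher in SC and 8 lower and 1 higher in IPL tumors, the higher one being Rpl35a. The lower share of these, 46.7% and 53.3%, compares with 59.2% and 62.0% of all members and 28.6% and 31.6% of all genes tested, and the difference was not tested.

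Rpl29, a large subunit protein, had the largest log2 fold change among the members called higher in AE17. It had 1.00, 1.35 and 2.15 CPM in AB1 SC and 35.8, 41.5 and 50.2 CPM in AE17 SC tumors, a log2 fold change of 4.85. In IPL tumors it had 0.808, 1.34 and 2.12 CPM in AB1 and 37.6, 42.2 and 46.5 CPM in AE17 (4.90). Its mean raw counts were 25.6 and 27.2 in AB1 SC and IPL and 703 and 717 in AE17 SC and IPL tumors, so it reached the limit of 100 counts only through the groups in which it was high and had to differ, and no test of it is given. The models did not overlap, nor did they for the next 3 genes.

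Rpl21 had 8.0, 10.6 and 12.4 CPM in AB1 SC and 169, 189 and 221 CPM in AE17 SC tumors (4.23, SE 0.08, adjusted p = 3.86e-28), with 4.04 in IPL tumors. Rps2 had 39.7, 49.8 and 59.2 CPM in AB1 SC and 152, 165 and 227 CPM in AE17 SC tumors (1.87, SE 0.16, adjusted p = 1.90e-11), with 1.66 in IPL tumors. Rpl35a had 60.8, 74.2 and 81.8 CPM in AB1 SC and 141, 162 and 166 CPM in AE17 SC tumors (1.12, SE 0.07, adjusted p = 8.17e-15), with 1.27 in IPL tumors. Together with Rpl22l1 these were the 5 largest rises at both sites. Other higher members had smaller values, among them Rpl24 (0.47 in SC and 0.77 in IPL tumors), Rps18 (0.34 and 0.25) and Rpl13a (0.33 and 0.48). Rps18 is named here after its values were seen.

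The counts of the processed pseudogenes that share 50-base stretches with these genes ran the other way for some of them. Gm14036, which matches Rpl29 at all but 3 of 480 bases, had a median of 77.1 CPM in AB1 SC and 67.9 CPM in AB1 IPL tumors against 0.0303 and 0.0881 CPM in AE17 SC and IPL tumors. Gm8210 had 33.1 and 32.9 CPM in the AB1 groups and was at 0 in the median AE17 mouse of each site. Other copies of Rpl29 had higher medians in AE17 SC than in AB1 SC tumors, Gm5561 with 60.9 against 45.6 CPM, Gm32536 with 48.7 against 43.7 CPM and Gm8580 with 19.7 against 17.3 CPM. For Rps2, Rps2-ps10 had medians of 142 and 166 CPM in AB1 SC and IPL against 20.3 and 24.7 CPM in AE17 SC and IPL tumors. For Rpl21 the copies split as well, with Rpl21-ps15 at 37.1 CPM in AB1 SC and 0.739 CPM in AE17 SC tumors and Rpl21-ps8 at 2.16 and 122 CPM. These copies are named here after their values were seen. The reference genome comes from C57BL/6J mice, the strain background of the AE17 but not of the AB1 tumors, and its part in these counts was not tested.

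Each member was therefore also summed with those pseudogenes, an alternative chosen after seeing the data, in which a read matching several copies may be counted more than once. The sum for Rpl29, over 53 added genes, had 278, 300.1 and 332 CPM in AB1 SC and 190, 217 and 252 CPM in AE17 SC tumors, and the log2 fold change became -0.47 (adjusted p = 1.06e-06), with -0.51 in IPL tumors (adjusted p = 2.13e-07). Rpl29 itself made up 0.482% of its sum in AB1 SC and 19.1% in AE17 SC tumors. The direction of Rpl29 between the models thus turned from higher to lower in AE17. The sum for Rps2, over 56 added genes, also turned, to -0.30 in SC (adjusted p = 0.0607) and -0.41 in IPL tumors (adjusted p = 0.00996), and Rps2 itself made up 17.2% and 76.2% of it in AB1 SC and AE17 SC tumors.

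Rpl21, Rpl35a, Rpl24 and Rpl22l1 stayed higher as sums. The sum for Rpl21 had medians of 61.9 CPM in AB1 SC and 422 CPM in AE17 SC tumors (2.70, with 2.87 in IPL), that for Rpl35a 351 and 474 CPM (0.42, with 0.56 in IPL), and those for Rpl24 and Rpl22l1 gave 0.45 and 1.14 in SC and 0.72 and 1.45 in IPL tumors. The sums for Rps18 were no longer called (0.12 in SC and, with its sign turned, -0.0021 in IPL tumors), and that for Rpl13a was called only in IPL tumors (0.33, adjusted p = 0.00105). Rpl13, Rplp2 and Rpl22 stayed lower, with -0.68, -0.68 and -0.57 in SC tumors. With sums, 5 members were higher and 46 lower in AE17 SC tumors, and 6 higher and 50 lower in AE17 IPL tumors, at medians of -0.28 and -0.32.

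**Figure D3:**
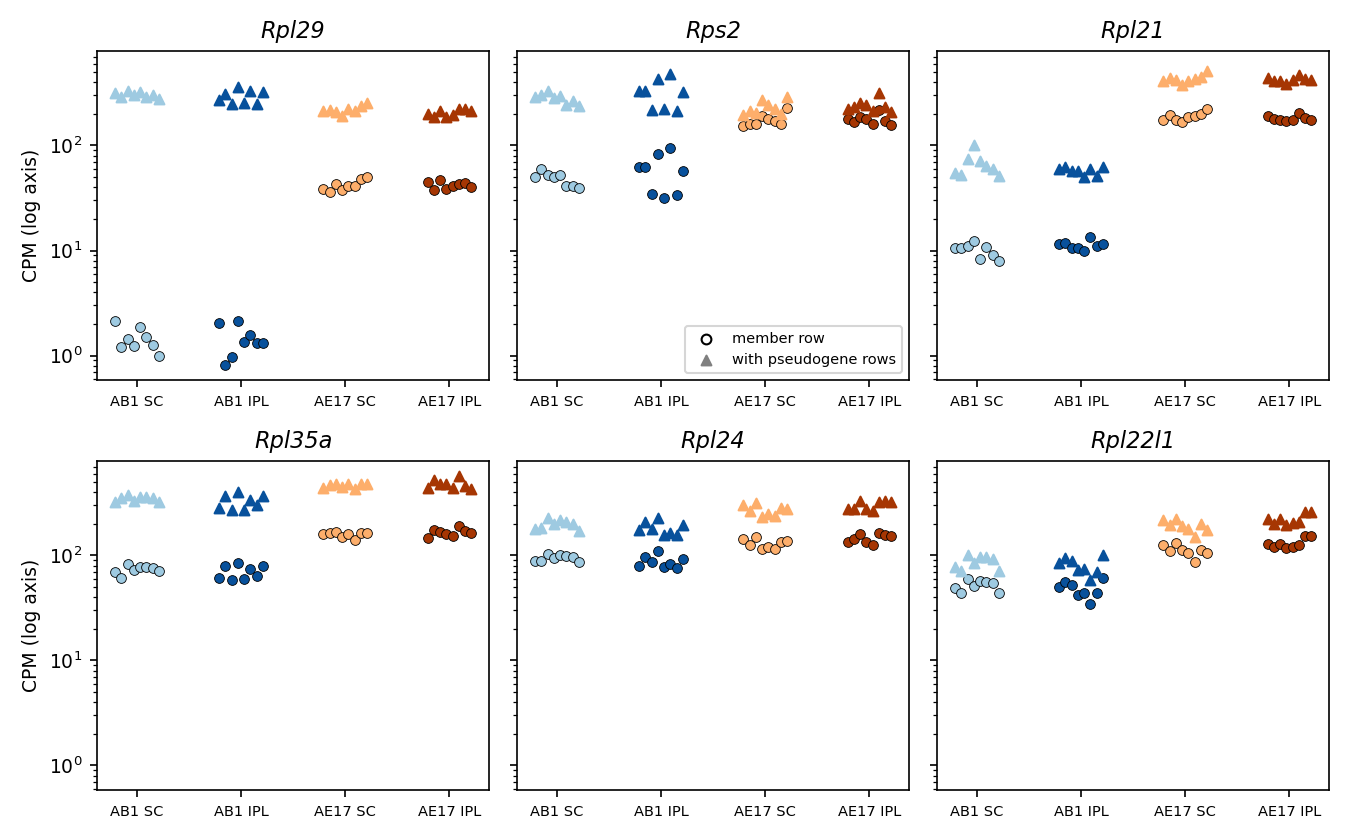
Level in CPM on a log axis of 6 members (circles) and of each member summed with the pseudogenes that share 50-base stretches with it (triangles), with 1 pair of points per mouse and 8 mice per group. The Rpl29 circles stand near 1.35 CPM in AB1 and 41.5 CPM in AE17 SC tumors while the triangles lie at 300.1 and 217 CPM, and for Rpl22l1 both kinds of point are higher in AE17.

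Rpl22, which is known to repress its paralog Rpl22l1, was lower in AE17 tumors and Rpl22l1 was higher. Rpl22 had 331, 361 and 390 CPM in AB1 SC and 187, 244 and 329 CPM in AE17 SC tumors (-0.53, SE 0.08, adjusted p = 1.92e-06). In IPL tumors it had 335, 384 and 462 CPM in AB1 and 183, 199 and 231 CPM in AE17 (-0.91, SE 0.08, adjusted p = 4.67e-11). No AE17 mouse reached the lowest AB1 mouse of its site.

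Rpl22l1 had 43.5, 52.5 and 59.8 CPM in AB1 SC and 86.0, 111 and 130 CPM in AE17 SC tumors (1.11, SE 0.10, adjusted p = 4.05e-11). In IPL tumors it had 34.1, 47.1 and 61.3 CPM in AB1 and 117, 128 and 153 CPM in AE17 (1.48, SE 0.10, adjusted p = 5.97e-14). The groups did not overlap here either. Per 100 CPM of Rpl22, Rpl22l1 stood at 12.95, 14.6 and 16.6 in AB1 SC and 7.40, 13.2 and 15.6 in AB1 IPL tumors. It stood at 30.2, 45.4 and 67.5 in AE17 SC and 54.8, 64.6 and 77.1 in AE17 IPL tumors. The AE17 ratios all lay above the AB1 ratios, and those of the AE17 sites overlapped.

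Rps27l, the paralog of Rps27 that is known as a p53 target, was lower in AE17 at both sites, as Rps27 was. It had 105, 127 and 147 CPM in AB1 SC and 90.3, 102 and 135 CPM in AE17 SC tumors (-0.24, adjusted p = 0.0148), and in IPL tumors its value was -0.42 (adjusted p = 6.83e-05), while Rps27 had -0.42 and -0.34. Per 100 CPM of Rps27 the medians were 27.3, 28.9, 30.5 and 27.5 in AB1 SC and IPL and in AE17 SC and IPL tumors, with overlapping ranges.

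**Figure D4:**
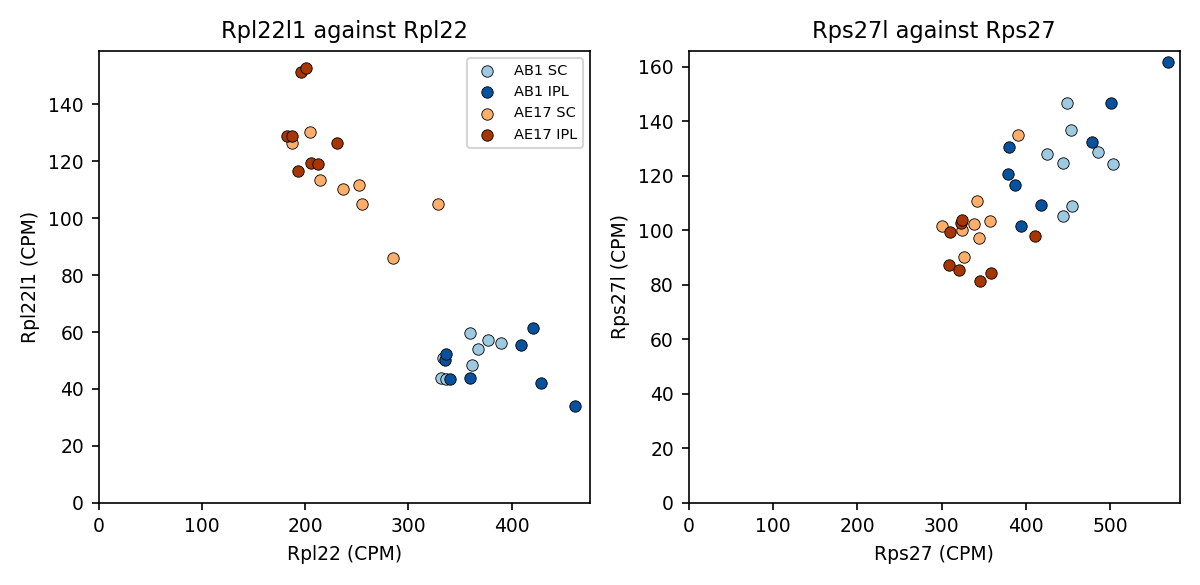
Rpl22l1 against Rpl22 (left) and Rps27l against Rps27 (right) in CPM, 1 point per mouse and 8 mice per group. The AE17 mice lie at 86.0 to 153 CPM of Rpl22l1 and the AB1 mice at 34.1 to 61.3 CPM. In SC tumors Rpl22 reaches 328.5 CPM in AE17 and starts at 331.3 CPM in AB1. Rps27l overlaps between the models at both sites. Rps27 does not overlap in SC tumors, with up to 390.4 CPM in AE17 and at least 425.4 CPM in AB1, but does in IPL tumors.

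Rps3a2 and Rps3a3 are intronless copies of Rps3a1, which encodes a small subunit protein, and differ from its 795 coding bases in few places. The 60 coding bases 201 to 260 are shown, and capitals mark, in Rps3a1, each base from which either copy differs and, in a copy, each base that differs from Rps3a1.
Rps3a1 (gene at chr3:86137940-86142702): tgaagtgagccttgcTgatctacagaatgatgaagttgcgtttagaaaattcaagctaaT
Rps3a2 (chr14:88123017-88123808): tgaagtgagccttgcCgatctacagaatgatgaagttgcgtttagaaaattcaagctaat
Rps3a3 (chr13:108670603-108671397): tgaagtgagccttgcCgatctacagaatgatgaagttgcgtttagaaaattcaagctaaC
Rps3a2 was 99.5% identical, with T216C, T534C, A645T and T668C. Rps3a3 was 98.9% identical, with T216C, T260C, C363T, A427T, T534C, G582T, A660G, C762T and G792A.

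Their raw counts fell into separate levels within groups. In AE17 SC tumors Rps3a2 had 0 to 5 counts and Rps3a3 3 to 10. In AE17 IPL tumors 7 mice had 0 to 2 counts of Rps3a2 and 5 to 14 of Rps3a3, whereas replicate 2 had 8777 and 5879. That mouse had 15122 counts of the parent Rps3a1, the lowest of its group, where the highest was 18443.

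In AB1 IPL tumors replicates 2 and 5 had 9732 and 12584 counts of Rps3a2 and 6376 and 8592 of Rps3a3, and the other 6 mice had 306 to 467 and 320 to 471. In AB1 SC tumors replicates 1, 2 and 5 had 2062, 2084 and 2641 counts of Rps3a2 against 274 to 391 in the others, and Rps3a3 had 1529, 1408 and 3449 counts in replicates 1, 2 and 3 against 291 to 406. High and low mice thus occurred in 3 of the 4 groups, and the high mice of the 2 copies were the same in the IPL tumors of both models but not in AB1 SC tumors.

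Between the models in SC tumors both copies had lower levels in AE17 (log2 fold changes of -8.77 for Rps3a2 and -7.44 for Rps3a3). These values depend on the prior count, since AE17 SC is near 0, and the copies reached the limit of 100 counts only through the other groups, so they are given as a description. In IPL tumors neither was called (-1.34 and -1.40). Without AE17 IPL replicate 2 the IPL values became -10.95 and -7.91, and the difference between the site effects turned from 7.43 to -2.19 for Rps3a2 (adjusted p = 0.663) and from 6.04 to -0.47 for Rps3a3 (adjusted p = 0.881). In AB1 IPL against AB1 SC tumors the values were 1.47 and 0.99, not called (adjusted p = 0.288 and 0.435). Rps3a1 itself had 1024, 1171 and 1233 CPM in AB1 SC and 892, 952 and 1197 CPM in AE17 SC tumors (-0.23, adjusted p = 0.00168).

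**Figure D5:**
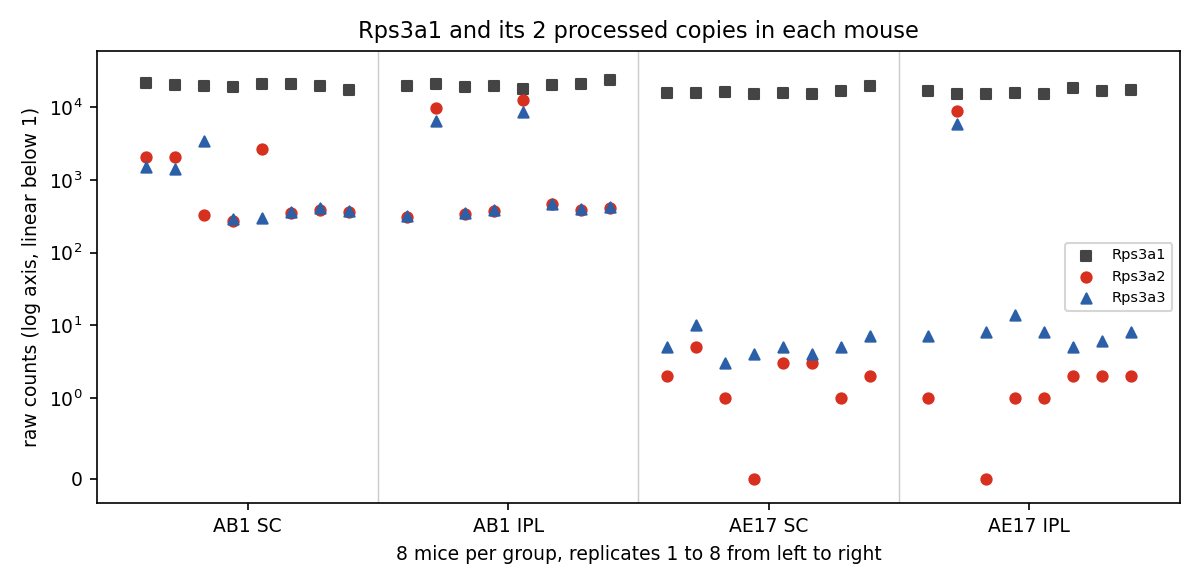
Raw counts of Rps3a1 and its processed copies Rps3a2 and Rps3a3 in each mouse, replicates 1 to 8 from left to right, on a log axis that is linear below 1 count. Rps3a1 lies in 1 band in all mice, while the copies stand at 8777 and 5879 counts in AE17 IPL replicate 2 and at 0 to 14 in the other 7 mice of that group.

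Genes that control or assist ribosomes were called in both directions between the models, where 29.7% and 28.6% of all genes were called higher and lower in SC and 31.8% and 31.6% in IPL tumors. Myc, the factor known to drive ribosomal protein genes, was higher in AE17: it had 82.9, 90.8 and 101 CPM in AB1 SC and 186, 225 and 317 CPM in AE17 SC tumors (1.35, adjusted p = 1.43e-10), with 1.71 in IPL tumors. Of 7 Myc family genes, 3 (42.9%) were higher and none lower at each site, with Mxd4 (0.87) and Mnt (0.40) beside Myc in SC and Mxd1 (0.69) and Mnt (0.21) in IPL tumors. Of 30 biogenesis genes, 6 (20.0%) were higher and 2 (6.67%) lower in SC, and 8 (26.7%) higher and 6 (20.0%) lower in IPL tumors, all below the shares of all genes. The nucleolar proteins Nop56 (0.38 in SC, 0.37 in IPL) and Fbl (-0.33, -0.41) went opposite ways.

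Of 25 initiation factors, 10 (40.0%) were higher and 4 (16%) lower in SC, and 11 (44.0%) higher and 6 (24%) lower in IPL tumors, against the shares of all genes just given. Eif4g1, the scaffold of cap binding, was higher (0.58 and 0.49) and Eif3c lower (-1.03 and -0.75). Of 12 elongation factors and other TOP messenger RNAs, 4 were lower and none higher in SC, and 6 lower and 2 higher in IPL tumors. Tpt1 was lower at both sites (-1.37 and -1.28), and Eef1b2, whose level followed the members within groups, had -0.22 in SC tumors. The ribosomal proteins outside the symbol rule included 2 of 4 called lower in SC and all 4 in IPL tumors, among them Rpsa (-0.37 and -0.48) and Rack1 (-0.45 and -0.58).

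Of 13 mTORC1 axis genes, 4 (30.8%) were higher and 4 (30.8%) lower in SC tumors, near the 29.7% and 28.6% of all genes, and 4 (30.8%) higher and 6 (46.2%) lower in IPL tumors, where all genes gave 31.8% and 31.6%, with Rptor higher (1.09 and 1.18), Rheb lower (-0.50 and -0.41) and Mtor lower (-0.26 and -0.60). Of 13 p53 targets, 2 were higher and 5 lower in SC, and 5 higher and 7 lower in IPL tumors. Mitochondrial ribosomal proteins went both ways, with 25 of 67 (37.3%) higher and 19 (28.4%) lower in SC (median 0.09), and 20 (29.9%) higher and 25 (37.3%) lower in IPL tumors (-0.03).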

How the data were processed

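RNA-seq was done on whole tumors of 32 separate mice. The authors aligned 50-base single-end reads with HISAT2 2.0.4 after bcl2fastq 1.8.4 (versions from the submitters' processing notes), counted them per gene with SummarizeOverlaps, and deposited raw counts, which were used as they stand. How reads matching several genes were counted was not given in the sources used here. The study's methods name the genome as mm11, while 39495 of 39676 gene identifiers, all 71 members among them, matched GENCODE M21 on GRCm38, which was used for positions, lengths and sequences. Total counts were 15432258 to 20649645. Over 112 pairs of mice of a group, chi-square per degree of freedom was 6.16 or more, so no library was counted as a duplicate.

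Counts were tested with edgeR 4.0.16 (quasi-likelihood F test, TMM scaling, low-count filter) in R 4.3.3, for site within each model and for all 32 mice together, with Benjamini-Hochberg adjustment over all genes tested and a threshold of 0.05. CPM used TMM factors. The script was tested on simulated data. DESeq2 1.42.0, limma 3.58.1 (voom), other filters and scalings, lane, GC, tissue markers, replicate block, pseudogene sums and leaving out each mouse were alternatives. The members and lists were chosen with earlier results of these data known. Named genes were the paralogs with their parents, the 5 largest rises and falls among members called per comparison, the 5 highest and lowest per kilobase, stalk and 5S proteins, at most 4 per other list, genes next to the count limit, and the 10 genes most alike, of which some are not reported here. No count column lacked a sample (0 of the table's columns).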

Additional observations from a re-analysis of the deposited data

Results flagged for a closer look

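Each value here stood apart from the other 7 mice of its group by Dixon's test, or differed between the models in the test of that difference. Only 28 of the 71 members, those named by the rule, were checked. Of 116 checks of 1 of these or of the member share in a group, 22 stood apart, where chance gives about 1 in 20 groups, and the members' levels in a mouse are not independent of each other. AE17 IPL held 13 of them, AE17 SC 7, and AB1 SC and AB1 IPL 1 each.

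AE17 IPL replicate 6 was the highest of its group in 11. Its members took 4.36% of all counts, against 3.61% to 3.87% in the others. Its CPM were 721 for Rpl13, 1330 for Rplp1, 1002 for Rpl10, 1081 for Rps3a1, 1401 for Rps4x, 662 for Rpl11, 718 for Rpl26, 595 for Rps15, 2366 for Rplp0 and 1006 for Rpl41. AE17 SC replicate 8 was the highest of its group in 7. Its members took 4.52% of all counts, against 3.55% to 3.99% in the others, and its CPM were 1197 for Rps3a1, 135 for Rps27l, 1570 for Rpl3, 642 for Rps15, 2711 for Rplp0 and 1071 for Rpl41.

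AE17 IPL replicate 2 had 518 CPM of Rps3a2, against 0 to 0.117 in the others, and 347 CPM of Rps3a3, against 0.293 to 0.829. AB1 SC replicate 3 had 206 CPM of Rps3a3, against 16.9 to 82.2, and AB1 IPL replicate 6 had 991 CPM of Rpl26, against 518 to 695.

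The site effect (IPL minus SC, log2) of AE17 minus that of AB1 was -0.38 for Rpl22, 0.30 for Rpl24, 6.04 for Rps3a3 and 7.43 for Rps3a2. Without AE17 IPL replicate 2 the last 2 were -0.47 and -2.19 and were not called.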

How the results depend on the processing

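The counts of members called between the models stayed within 1.5 times under every alternative but 1, the pseudogene sums, with which 5 members in place of 9 were higher in SC tumors. The median of the members stayed negative in both model comparisons under all of them, and leaving out 1 mouse gave 9 to 10 higher and 38 to 44 lower in SC and 8 to 10 higher and 41 to 48 lower in IPL tumors. The pseudogene sums also reversed Rpl29 (-0.47 in SC, -0.51 in IPL) and Rps2 (-0.30, -0.41), gave Rpl26 -0.52 and Rplp0 -0.38 in SC, and with only the -ps genes added Rps2 had -0.0807 in IPL tumors. These sums may count a read on several genes. The short reads may limit what can be told apart between copies, and the parts of depth and read length were not tested.

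The few calls between sites depended on the alternative, and except where a gene set or sample was left out the cause was not tested. In AB1, members lower numbered 7 with voom, 3 with GC correction, 3 without AB1 IPL replicates 2 and 4, and 0 to 1 on leaving out 1 mouse (1 without AB1 IPL replicate 4), and 1 was higher with a limit of 20 counts. In AE17, members higher numbered 8 with voom, 3 with all 32 mice in 1 fit, and 0 with pseudogene sums, lane as a covariate, tissue markers, lane 1 alone or a threshold of 0.01, and members lower 2 with DESeq2, 1 with all 32 mice and 9 with voom. Leaving out 1 mouse gave 0 to 2 higher (0 without AE17 IPL replicates 4 or 7 or SC replicate 5) and 0 to 3 lower (3 without AE17 SC replicates 1 or 3).

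For the difference of the site effects, members higher numbered 10 with voom (median 0.0701), 0 with no filter beyond 1 count, with 10 counts in every mouse or at 0.01, and 1 with pseudogene sums or protein-coding members only, and members lower 0 at 0.01 and 2 with a limit of 20 counts. Leaving out 1 mouse gave 0 to 4 higher (4 without AB1 IPL replicate 2 and 0 without AB1 IPL replicates 1, 6 or 7 or AE17 SC replicates 4, 5 or 6, each left out alone) and 1 to 2 lower (2 without AB1 IPL replicates 3 or 7), -2.19 to 8.28 for Rps3a2 and -0.47 to 6.86 for Rps3a3, each lowest without AE17 IPL replicate 2. Rpl3l in AB1 became -0.30 with tissue markers. With a replicate block, 0 were higher and 1 lower, while the site counts within each model did not change (0 and 0 in AB1, 1 and 0 in AE17). The replicate numbers are not shown to pair mice: deviations of same-numbered mice correlated above 0.1 in 0 of 8 AB1 and 5 of 8 AE17 pairs. Counted over the mice of both sites together, 3 AE17 mice and 0 AB1 mice correlated best with their own number.

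The median member share was 4.84% in AB1 SC tumors without the 10 genes with the most counts, and with -ps genes added 6.15%, 5.98%, 5.15% and 5.03% in AB1 SC and IPL and AE17 SC and IPL tumors. By coding length, 2 of the 5 highest members were those by exon length.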
